A study of Arabidopsis thaliana with 8 samples.

Results

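Transcripts of 3 nuclear genes of pigment synthesis in the chloroplast were followed in Arabidopsis thaliana: AT1G74470 (geranylgeranyl reductase, spot 2360), AT4G25080 (CHLM, magnesium protoporphyrin IX methyltransferase, spot 2091) and AT1G10830 (Z-ISO, zeta-carotene isomerase, spot 1756). They were taken by locus, as the genes of chlorophyll and carotenoid synthesis whose spot is annotated to exactly 1 gene, and are 3 of 3261 genes or unnamed spots tested, 646 of which carry a single locus. The study set 4 samples of the tatA line, an antisense line that the labels also call a mutant, against 4 wild-type samples (WT). Both groups are ecotype Columbia 0, and total RNA of each sample was measured on 1 single-colour array. The sources used here do not give tissue, age, growth conditions, the promoter of the antisense construct or the number of lines. TatA belongs to the twin-arginine translocase, which uses the ion gradient to move folded proteins across the thylakoid membrane. The tatA transcript, which would check the labels, is not analysed here. The question addressed is how the levels of these pigment transcripts in the tatA line differed from those in WT.

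Chlorophyll is assembled from 2 building blocks, a tetrapyrrole ring that carries magnesium and a phytyl tail made from isoprenoid units. CHLM works on the ring: it transfers a methyl group to magnesium protoporphyrin IX and so makes the substrate of the cyclase that closes the last ring of the chlorophyll skeleton. Geranylgeranyl reductase works on the tail: it reduces the geranylgeranyl chain to the phytyl chain used for chlorophyll and for tocopherol. Carotenoids share the geranylgeranyl precursor with that tail, and Z-ISO isomerises a cis bond of zeta-carotene between the desaturation steps that lead from phytoene to lycopene. In green tissue these pigments are bound in the photosystems and their antennae, and carotenoids protect against excess light.

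All values start from deposited spot intensities on a linear scale that ends at 100. The median intensity of an array ran from 0.365 to 0.390 in tatA and from 0.429 to 0.531 in WT. Log2 changes below are tatA minus WT after quantile normalization, which makes all arrays share 1 distribution, so they are relative to the array as a whole. A gene passed where limma's Benjamini-Hochberg adjusted p over the 3261 rows was under 0.05. By this rule 32.1% of all rows passed (15.3% higher and 16.8% lower in tatA). In both groups the arrays fell into replicate pairs, 1-2 and 3-4, whose members were alike (consensus correlation 0.546). No label says what separates the pairs, or that samples came from separate plants, so p-values measure the spread between these arrays. When these pairs entered as a random block, 537 rows passed, and 57 did when each pair was averaged.

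Of the 3 pigment genes, 1 passed, higher in tatA, and 2 did not, a share close to the 32.1% of all rows that passed in either direction. Geranylgeranyl reductase rose by 0.50 on the log2 scale, CHLM had a value of -0.003 and Z-ISO one of -0.37. The median of the 3 was -0.003, against -0.09 over all rows tested. All 3 had a signal above 0 on all 8 arrays, so none passed the filter on low values through 1 group alone. The genes also differed in spread: geranylgeranyl reductase had a residual SD of 0.0933 on the log2 scale, CHLM one of 0.448 and Z-ISO one of 0.366, against a median of 0.341 over all rows.

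**Figure D1:**
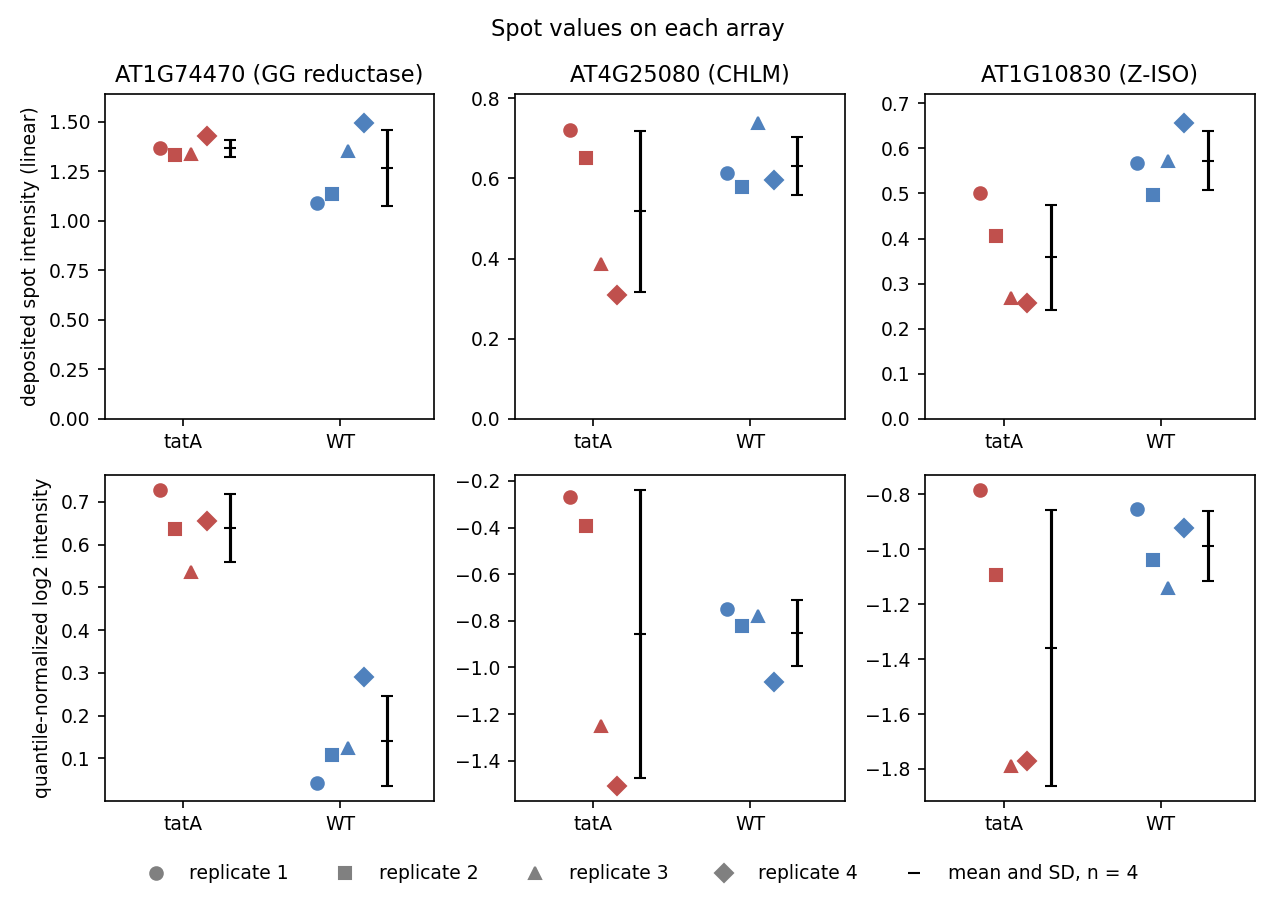
Deposited spot intensity (upper row, linear, from 0) and quantile-normalized log2 intensity (lower row) of the 3 genes on each tatA and WT array, with a marker for each replicate number and the mean and SD of 4 arrays in black. After normalization the 4 tatA values of geranylgeranyl reductase lie above the 4 WT values, whereas those of CHLM and Z-ISO spread from replicates 1 and 2 to the lower replicates 3 and 4.

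Geranylgeranyl reductase had deposited intensities of 1.37, 1.33, 1.34 and 1.43 on tatA arrays 1 to 4, against 1.09, 1.13, 1.35 and 1.49 on WT arrays 1 to 4. On this scale the groups overlapped, since WT replicates 3 and 4 were as high as the tatA arrays, and the means were 1.37 ± 0.0435 in tatA and 1.27 ± 0.190 in WT (SD, n = 4 arrays). The tatA arrays were dimmer as a whole, and within its array the gene stood higher in tatA: its intensity exceeded that of 88.6% to 90.6% of spots on the tatA arrays and of 81.8% to 85.7% on the WT arrays. It lay at 3.43 to 3.87 times the array median in tatA and at 2.54 to 2.85 times in WT.

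After normalization the log2 values of geranylgeranyl reductase were 0.73, 0.64, 0.53 and 0.65 in tatA, against 0.04, 0.11, 0.12 and 0.29 in WT. The groups no longer overlapped, as was the case for 35.5% of all rows. The gene rose by 0.50 (SE 0.09, 95% interval 0.29 to 0.71, limma adjusted p = 0.00413), a 1.41-fold higher level in tatA. By size of change in either direction it ranked 1800 of 3261 rows. In bulk RNA a change in the share of cells that hold a transcript and a change in RNA per cell cannot be told apart. The rise was 0.39 in replicates 3-4 and 0.61 in replicates 1-2, and it passed within each pair (limma adjusted p = 0.0405 and 0.00912) and in the fit that takes pairs as a random block (0.0304). The fits within a pair treat its arrays as independent, although these were alike, so their p-values measure the spread between such arrays only. Of 3261 rows, 1420 passed within replicates 3-4 and 899 within replicates 1-2. Averaging each pair to 1 value ended the call of geranylgeranyl reductase (limma adjusted p = 0.189). On the deposited scale, where the median row lay at -0.47, the value was 0.12 and did not pass (limma adjusted p = 0.451). There the means in replicates 3-4 were 1.38 in tatA and 1.42 in WT, a log2 ratio of -0.04, and in replicates 1-2 they were 1.35 in tatA and 1.11 in WT, a log2 ratio of 0.28. A higher level in tatA within replicates 3-4 was thus seen after normalization and not in the deposited intensities.

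CHLM had deposited intensities of 0.721, 0.652, 0.387 and 0.310 on tatA arrays 1 to 4, against 0.613, 0.580, 0.738 and 0.596 on WT arrays 1 to 4. The WT arrays lay close together, whereas tatA replicates 1 and 2 stood above all WT arrays but replicate 3, and tatA replicates 3 and 4 below all of them. The means were 0.518 ± 0.200 in tatA and 0.632 ± 0.0722 in WT (SD, n = 4 arrays), with a coefficient of variation of 38.6% in tatA and 11.4% in WT. Within their arrays the CHLM values exceeded 75.9%, 73.1%, 49.8% and 42.6% of spots in tatA, against 64.1%, 62.0%, 63.3% and 55.4% in WT. After normalization the log2 difference was -0.003 (SE 0.28, limma adjusted p = 0.997). Its 95% interval, -0.65 to 0.64, holds folds of 0.639 to 1.56, which includes both a rise and a fall as large as the change of geranylgeranyl reductase.

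Z-ISO had deposited intensities of 0.501, 0.407, 0.269 and 0.258 on tatA arrays 1 to 4, against 0.567, 0.497, 0.571 and 0.656 on WT arrays 1 to 4. All tatA arrays but replicate 1 lay below all WT arrays, and tatA replicate 1 stood just above the lowest WT array. The means were 0.358 ± 0.117 in tatA and 0.573 ± 0.0652 in WT (SD, n = 4 arrays). After normalization the log2 values were -0.79, -1.10, -1.79 and -1.77 in tatA, against -0.85, -1.04, -1.14 and -0.92 in WT, and the groups overlapped. The difference was -0.37 (SE 0.25, 95% interval -0.93 to 0.19, limma adjusted p = 0.274). On the deposited scale it was -0.73 and passed (limma adjusted p = 0.0388). There the median row lay at -0.47, and 1390 of 3261 rows passed, 1080 of them lower in tatA. After normalization the difference of Z-ISO also varied with the pair. Within replicates 3-4 it was -0.75 and passed (limma adjusted p = 0.0229), whereas within replicates 1-2 it was 0.01 (limma adjusted p = 0.987). In these fits, which take the arrays of a pair as independent, 1420 of 3261 rows passed in replicates 3-4 and 899 in replicates 1-2.

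**Figure D2:**
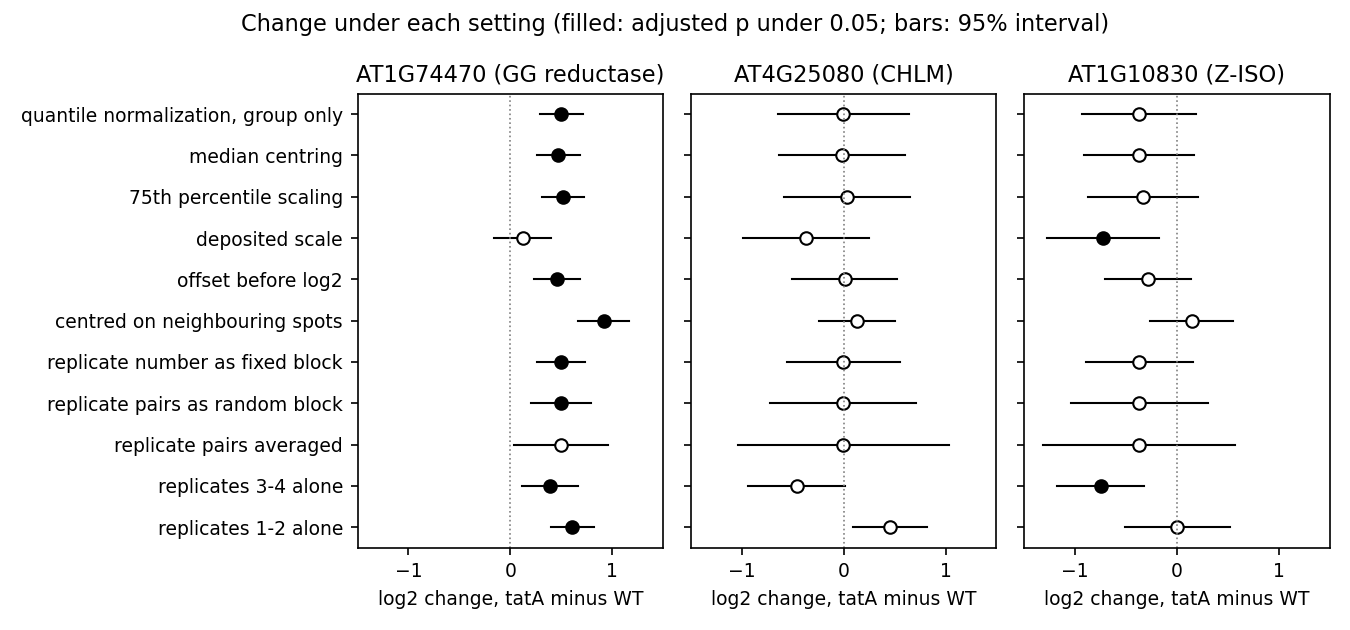
Log2 change of the 3 genes, tatA minus WT, under 11 settings of normalization and replicate handling (points filled where limma's adjusted p was under 0.05, bars the 95% interval). Geranylgeranyl reductase lies above 0 in each, from 0.12 on the deposited scale to 0.91 when centred on neighbouring spots, while CHLM and Z-ISO lie on both sides of 0.

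The ratio of 2 spots on the same array does not depend on a factor that scales the whole array, so it was used to ask whether the 3 genes changed unequally. It does depend on background and on scaling that varies with intensity. Levels of different spots are not compared by it, only its shift between the groups. The ratio of geranylgeranyl reductase to Z-ISO was 2.74, 3.28, 4.97 and 5.54 on tatA arrays 1 to 4, against 1.92, 2.28, 2.37 and 2.28 on WT arrays 1 to 4. Every tatA array lay above every WT array, and the mean log2 ratio was 1.99 ± 0.48 in tatA and 1.14 ± 0.14 in WT (SD, n = 4 arrays). After normalization 35.5% of single rows did not overlap either. The share of other gene pairs whose ratio separates the groups was not computed. The shift of 0.85 is a 1.80-fold higher ratio in tatA (exact permutation test over 70 assignments, two-sided, p = 0.0286, the smallest these arrays can give, and 0.0857 after Benjamini-Hochberg adjustment over the 3 ratios). The permutation tests of the ratios take the arrays as exchangeable. Arrays of a replicate pair were alike, so these p-values do not allow for the pairs. The shift of this ratio was 1.18 in replicates 3-4 and 0.52 in replicates 1-2, in the same direction.

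The ratio of geranylgeranyl reductase to CHLM was 1.90, 2.04, 3.45 and 4.61 in tatA, against 1.78, 1.96, 1.83 and 2.51 in WT. The groups overlapped, and the log2 shift of 0.49 did not pass (exact permutation p = 0.200, adjusted p = 0.200). It was 0.90 in replicates 3-4 and 0.08 in replicates 1-2. The ratio of CHLM to Z-ISO was 1.44, 1.60, 1.44 and 1.20 in tatA, against 1.08, 1.17, 1.29 and 0.909 in WT, with 1 tatA array below the highest WT array. Its log2 shift was 0.36 (exact permutation p = 0.0571, adjusted p = 0.0857), with 0.28 in replicates 3-4 and 0.44 in replicates 1-2. Thus 0 of the 3 ratios passed after adjustment, and at an unadjusted p under 0.05 only that of geranylgeranyl reductase to Z-ISO did.

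**Figure D3:**
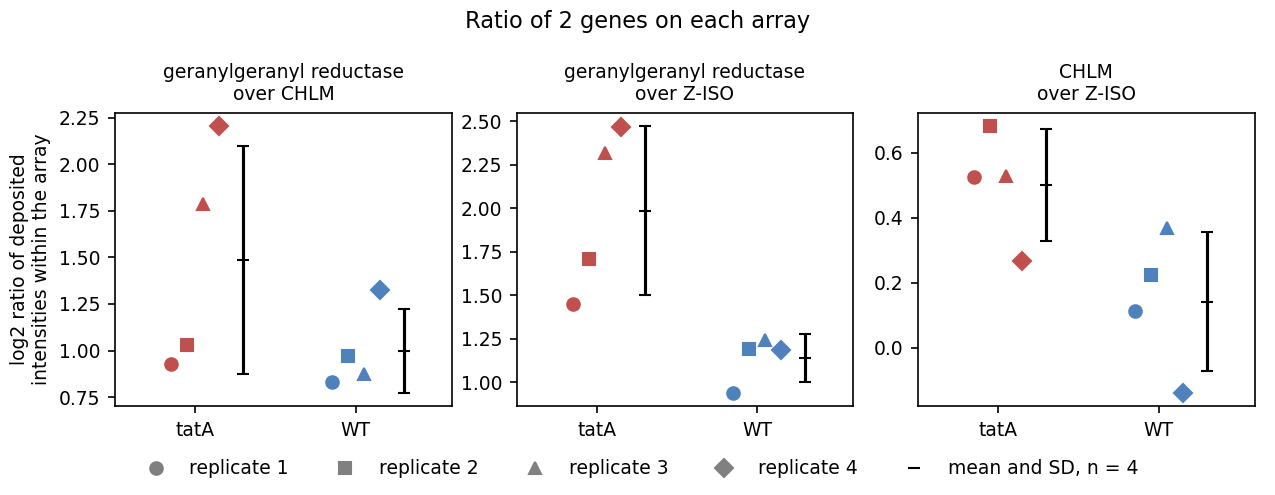
Log2 ratio of the deposited intensities of 2 genes on the same array, for tatA and WT, with a marker for each replicate number and the mean and SD of 4 arrays in black. The ratio of geranylgeranyl reductase to Z-ISO does not overlap between the groups, and the other ratios do. How many other gene pairs separate in this way was not computed.

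The genes differed in how far the replicate pairs went apart. CHLM had a log2 change of -0.46 in replicates 3-4 and of 0.45 in replicates 1-2. Neither passed in a fit of that pair alone (limma adjusted p = 0.0999 and 0.0778). In the deposited intensities the log2 ratios of means were -0.94 and 0.20. The difference between the pairs after normalization, -0.92 (SE 0.23), passed as an interaction of group and pair (limma adjusted p = 0.0476), as it did for 11.7% of all rows. This test takes the arrays within a pair as independent, and it was added after the pairs had been seen. The difference did not pass in any of 8 fits that left out 1 array (adjusted p from 0.0569 to 0.133), without the intensity trend (0.0721) or when centred on neighbouring spots (-0.50, 0.354). Z-ISO had a difference of -0.75 (SE 0.26, adjusted p = 0.104), and geranylgeranyl reductase one of -0.22 (SE 0.13, adjusted p = 0.327).

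Spots with neighbouring numbers moved with the genes in part. Around CHLM, 9 tested spots within 10 numbers had a median log2 change of -1.16 in replicates 3-4 and of -0.01 in replicates 1-2. Spot 2090, the number before CHLM, had intensities of 0.704, 0.786, 0.391 and 0.256 in tatA, against 0.966, 0.863, 1.69 and 1.35 in WT, without overlap. Its log2 value was -0.93 (SE 0.37, limma adjusted p = 0.0828), and spot 2092 is not analysed here.

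Around Z-ISO, 12 tested spots had a median of -0.76 in replicates 3-4 and of -0.26 in replicates 1-2, beside -0.75 and 0.01 for Z-ISO itself. Both spots next to it fell in tatA: spot 1755 by 0.88 on the log2 scale (limma adjusted p = 0.0221) and spot 1757 by 0.67 (adjusted p = 0.000217). Around geranylgeranyl reductase, 13 tested spots had a median of -0.24 in replicates 3-4 and of 0.26 in replicates 1-2, and over all 8 arrays of -0.05. Spot 2361, AT2G35450, next to it, had a log2 value of 0.21 (limma adjusted p = 0.263), and spot 2359 one of 0.06 (adjusted p = 0.872). Over all 8 arrays the median around CHLM was -0.66 and that around Z-ISO -0.56. In another setting each spot was centred, on each array, on the median level of the tested spots within 10 numbers. Geranylgeranyl reductase then had a change of 0.91 (limma adjusted p = 0.000404), CHLM one of 0.13 and Z-ISO one of 0.14, and 995 of 3261 rows passed. The median level of so few spots rests on the middle ones. Centring on it therefore does not equal taking the neighbours' median change from that of the gene. The sources used here do not say whether neighbouring numbers lie side by side on the array, and the part of position in these values was not tested.

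**Figure D4:**
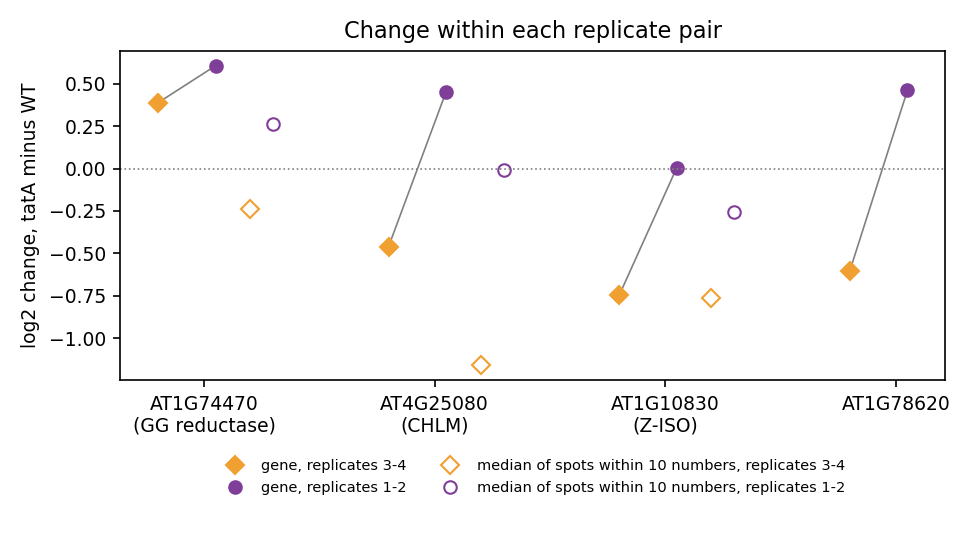
Log2 change, tatA minus WT, of the 3 genes and of AT1G78620 within replicates 3-4 (filled diamonds) and replicates 1-2 (filled circles), with the median change of the tested spots within 10 numbers of each of the 3 genes as open symbols. CHLM and AT1G78620 lie below 0 in replicates 3-4 and above 0 in replicates 1-2, and geranylgeranyl reductase lies above 0 in both.

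Few other genes of these pathways could be measured. Of 96 genes in lists on tetrapyrrole and chlorophyll synthesis, heme and bilins, chlorophyll breakdown and recycling, carotenoids, plastid isoprenoid precursors, and tocopherol and quinones, 4 had a spot of their own and all 4 were tested. Beside the 3 genes above, this was AT1G78620, from the list on chlorophyll breakdown and recycling. It had intensities of 0.463, 0.279, 0.125 and 0.110 on tatA arrays 1 to 4, against 0.322, 0.289, 0.259 and 0.230 on WT arrays 1 to 4, so that tatA replicates 3 and 4 lay below all WT arrays and tatA replicate 1 above them. The log2 value of AT1G78620 was -0.07 (SE 0.48, 95% interval -1.15 to 1.01, limma adjusted p = 0.922). Its change was -0.60 in replicates 3-4 and 0.46 in replicates 1-2, and the difference between the pairs did not pass (adjusted p = 0.163). A further 6 spots are annotated to several genes, at least 1 of them on these lists, and are not named. Of 12 genes that mark green tissue, 3 were tested and 1 of them passed, PSBW, which rose. That share is near the 32.1% of all rows that passed in either direction. None of 7 root markers or 5 pollen and flower markers had a spot of its own.

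The genes whose pattern over the 8 arrays was most like each of the 3 were taken from the 645 other rows with a single locus, by Pearson correlation of normalized log2 values. These correlations are descriptions over 8 arrays that share the group difference and the replicate pairs. For geranylgeranyl reductase the highest were AT2G47680 (r = 0.973), CML41, a calmodulin-like protein (r = 0.971), and PSBW, a small subunit of photosystem II (r = 0.966). CML41 had intensities of 0.630, 0.597, 0.636 and 0.609 in tatA, against 0.246, 0.237, 0.397 and 0.473 in WT, which like geranylgeranyl reductase combines level tatA arrays with WT arrays that are higher in replicates 3 and 4. The lowest was AT1G50750 (r = -0.987).

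For CHLM the highest were AT3G51500 (r = 0.947), AT1G78620 (r = 0.937), the 1 other tested gene of the pathway lists, and AT4G34310 (r = 0.926), and the lowest was AT2G01400 (r = -0.944). AT3G51500 had intensities of 1.55, 1.64, 1.07 and 1.07 in tatA, against 1.62, 1.63, 1.76 and 1.73 in WT, so that it too was lower in tatA replicates 3 and 4 than on all other arrays. For Z-ISO the highest were AT1G50020 (r = 0.960), AT1G22850 (r = 0.935) and CBL, cystathionine beta-lyase of methionine synthesis (r = 0.934), and the lowest was AT3G29410 (r = -0.941). CBL had 0.498, 0.370, 0.169 and 0.163 in tatA, against 0.750, 0.603, 0.495 and 0.468 in WT. AT1G50020 was listed at 0 on tatA replicates 3 and 4, and its correlation depends on the value that replaced these zeros. Among the 3 genes, CHLM and Z-ISO had r = 0.780, rank 15 of 645 for CHLM, while geranylgeranyl reductase had r = 0.04 with CHLM and -0.36 with Z-ISO.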

How the data were processed

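The data are 1 table of 3439 spots on 8 arrays, 1 column per sample, and the titles of the samples gave groups and replicate numbers. The authors deposited spot intensity, linear and never negative, and the sources used here do not say how it was read, background-corrected or scaled. Array medians differ, and signal over background is unknown. Spots at 0 on more than 4 of 8 arrays (177) were left out, other zeros took their array's lowest value above 0, and log2 and quantile normalization followed, as in an earlier analysis of the same table. Platform annotation gives 1 gene for 692 spots, several for 870 and none for 1877. Of the 692, 690 matched a locus in RefSeq (TAIR10.1), used for names only, and no coordinates or sequences are given. The 2 spots of AT2G25870 were averaged, which left 3261 rows.

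The main comparison used limma 3.58.1 (R 4.3.3), with group as its single term in lmFit and an intensity trend in eBayes, two-sided. The call rule was checked on simulated data with independent arrays, so that check does not cover arrays that are alike within replicate pairs. Ratios within arrays were tested by exact permutation in SciPy 1.17.1, and figures were drawn with matplotlib 3.10.9. The genes and lists, and the use of replicate pairs, were chosen with earlier results of these data known. Named were the 3 genes, other tested genes of the pathway lists, the 3 most and 1 least similar pattern per gene, and spots directly next to each gene. CML41, CBL and AT3G51500 were picked from these for their values per array after these were seen.

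Same-numbered tatA and WT arrays deviated together from their group means (correlations 0.284, 0.311, 0.266 and 0.337 for numbers 1 to 4), all over 0.1, the limit for taking numbers as pairing samples. Arrays of other numbers within the same pair correlated at 0.0317 to 0.131, and arrays of different pairs at -0.24 to -0.15. Deviations from a group mean cancel within the group, so positive correlations for some arrays in part force negative ones for others. Alternatives covered scaling, zeros, dim rows, variance model, replicate blocks and pairs, neighbouring spot numbers (10 on each side), an offset of 0.118 before log2 and leaving out each array. The interaction of group and pair was added after seeing the data.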

Additional observations from a re-analysis of the deposited data

Results flagged for a closer look

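The change of CHLM (AT4G25080) between tatA and WT was opposite in sign in the replicate pairs, and it passed within neither. It was -0.46 in replicates 3-4 and 0.45 in replicates 1-2 (limma adjusted p = 0.0999 and 0.0778). The difference between replicates 3-4 and replicates 1-2 was -0.92 on the log2 scale (limma interaction, adjusted p = 0.0476). The test was added after the pairs had been seen, and the call was lost in each of 8 fits that left out 1 array (adjusted p from 0.0569 to 0.133), without the intensity trend (0.0721) and with neighbour centring (0.354). In each tatA array of replicates 3-4 CHLM lay below all WT arrays, and in each of replicates 1-2 the normalized value lay above all WT arrays. The 9 tested spots within 10 numbers of CHLM differed between the pairs in the same direction (medians of -1.16 in replicates 3-4 and -0.01 in replicates 1-2), and their part in the result was not tested.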

How the results depend on the processing

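The rise of geranylgeranyl reductase kept its direction in all 18 alternatives of processing and without any 1 of the 8 arrays (0.46 to 0.55, limma adjusted p from 0.00549 to 0.0140). It did not pass on the deposited scale (0.12) or with each replicate pair averaged (0.50). CHLM, near 0 after normalization, was -0.37 on the deposited scale (limma adjusted p = 0.301), -0.13 with array weights and -0.46 in replicates 3-4 alone. It turned positive with 75th percentile scaling (0.029), the offset (0.011), replicates 1-2 alone (0.45) and centring on neighbouring spots (0.13). Leaving out 1 array gave -0.20 to 0.21, so CHLM has no direction here. Z-ISO turned positive in replicates 1-2 alone (0.0059) and with neighbour centring (0.14), passed on the deposited scale (-0.73) and in replicates 3-4 alone (-0.75), and ran from -0.56 to -0.23 when 1 array was left out. The cause of these shifts was not tested. The count of rows that passed, 1046, fell to 537 with the pairs as a random block and to 57 with pairs averaged, where 2 values per group remain, and ran from 796 to 946 without 1 array. On the deposited scale 1390 passed, 310 higher and 1080 lower, against 499 higher and 547 lower after normalization. Within replicates 3-4 alone 1420 rows passed, and within replicates 1-2 alone 899.

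The difference between pairs for CHLM (-0.92) did not pass without the intensity trend (-0.92), with neighbour centring (-0.50) or in any of the 8 fits without 1 array (-1.06 to -0.77, limma adjusted p from 0.0569 to 0.133). That for Z-ISO passed on the deposited scale (-0.98) and ran from -0.91 to -0.60, and that for geranylgeranyl reductase turned to 0.045 with neighbour centring and ran from -0.30 to -0.14. Leaving out 1 array moved the log2 ratio shifts between 0.69 and 1.02 (geranylgeranyl reductase to Z-ISO), 0.25 and 0.67 (to CHLM) and 0.27 and 0.44 (CHLM to Z-ISO). In the same order, these shifts were 0.67, 0.40 and 0.27 with the offset, and 0.87, 0.50 and 0.37 from normalized values. With the replicate number as a fixed replicate block the values of the 3 genes were the same (0.50, -0.003 and -0.37; limma adjusted p = 0.0132, 0.995 and 0.225) and 1027 rows passed, and as a random block 1176 passed. Pairing by replicate number changed no call of the 3 genes. For the ratios, the sign-flip test on same-numbered arrays cannot go below p = 0.125 (exact), which each of the 3 reached, and so cannot pass.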
